A study of Mus musculus with 20 samples.

Results

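The integrin and focal adhesion genes described here are 32 of the 43422 genes measured in the abdominal aorta of *Plod1*-/- and wild type (WT) mice. They were chosen by name from Ensembl identifiers matched to mouse symbols. They comprise 10 integrin alpha subunits, 4 beta subunits, 4 genes of talin, kindlin and vinculin, 4 of the ILK-PINCH-parvin complex, 3 signalling genes, 6 actin linkers and the ligand gene *Fn1*. The leukocyte beta-2 integrins are no members. *Plod1* encodes lysyl hydroxylase 1 (LH1), which modifies lysines of collagen, and RNA sequencing addressed how its loss alters the aorta under angiotensin II (Ang II). All 20 mice were labelled C57BL/6 (C57Bl/6NCrl per the methods) and 6 months of age, while the methods give a younger age at pump implantation. They carried subcutaneous osmotic pumps for 14 days. The 4 groups of 5 mice were WT on saline, WT on Ang II at 1000 ng/kg per minute, *Plod1*-/- on saline, and *Plod1*-/- on the same dose of Ang II. The knockout is present in the whole animal, the genotypes were littermates and only males were studied per the methods.

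Integrins are membrane receptors made of an alpha and a beta subunit that hold cells to the extracellular matrix. Inside the cell, talin and kindlin bind the beta tail and activate the receptor, while vinculin, the alpha-actinins, tensins and the ILK-PINCH-parvin complex join it to actin. In the aortic media these contacts link smooth muscle cells to fibronectin, collagen, laminin and elastic fibres, and focal adhesion kinase and Src signal from them.

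Gene levels are FPKM (fragments mapped to a gene, divided by its length and by the library's mapped fragments), so that levels of different genes can be set side by side. *Plod1* stood at 22.8 to 29.7 FPKM in the 10 WT libraries and at 0 to 0.0415 FPKM in the 10 *Plod1*-/- libraries. The FPKM sum of a library ran from 344207 to 437790. By smooth muscle markers, Ang II-treated libraries of each genotype held 1 that stood apart. *Plod1*-/- Ang II replicate 1 had a summed level of 7 smooth muscle markers of 16990 FPKM against 2326 to 6204 in the other 4, and WT Ang II replicate 4 had 17070 against 5530 to 10511. In saline-treated mice this sum ran from 14147 to 20755. By other markers WT Ang II replicate 1 differed from the other 4 WT Ang II mice. Its leukocyte markers summed to 218 FPKM against 38.0 to 57.5, and its platelet markers to 97.5 FPKM against 23.9 to 27.7. *Plod1*-/- Ang II replicate 1 and *Plod1*-/- saline replicate 5 also held *Xist* RNA, although the methods name males only. Mitochondrial transcripts took 23.3% ± 5.78 (SD, n = 5) of the FPKM sum in WT Ang II libraries and between 11.1% and 13.4% on average in the other groups.

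RefSeq promoter windows on GRCm38.p6 (mm10) were found for 23 of the 32 members (27 windows, since a gene can have several), and the 250 bases before each start site were searched on both strands. A CArG box, the site that serum response factor is known to bind in smooth muscle and cytoskeletal genes, was found in the windows of *Vcl* and *Fermt2*, 2 of 27 windows (7.41%), against 1.47% of all 32851 windows. The GC box GGGCGG, or CCGCCC on the other strand, stood in 16 of the 27 windows (59.3%) and in 32.7% of all windows. The AP-1 motif TGANTCA was in *Actn4* and *Zyx* (7.41% of the 27 and 6.75% of all windows), and the TEAD motif GGAATG was in *Actn4*, *Itgb1* and *Vcl* (11.1% and 12.6%). A match is a description of letters in a window, and binding was not measured. Shown are *Vcl* and *Fermt2*, with the CArG box in capitals, and *Itga5*, the member with the largest fall in Ang II-treated WT mice, with GC boxes in capitals. *Vcl* lies at chr14:20929148-20929397 on the plus strand, *Fermt2* at chr14:45530119-45530315 on the minus strand (197 bases, ending at the annotated exon), and *Itga5* at chr15:103366792-103367041 on the minus strand.
Vcl: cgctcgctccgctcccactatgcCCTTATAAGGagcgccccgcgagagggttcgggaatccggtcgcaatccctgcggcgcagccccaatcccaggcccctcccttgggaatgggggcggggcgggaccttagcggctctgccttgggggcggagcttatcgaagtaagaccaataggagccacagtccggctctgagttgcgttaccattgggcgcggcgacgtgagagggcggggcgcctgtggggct
Fermt2: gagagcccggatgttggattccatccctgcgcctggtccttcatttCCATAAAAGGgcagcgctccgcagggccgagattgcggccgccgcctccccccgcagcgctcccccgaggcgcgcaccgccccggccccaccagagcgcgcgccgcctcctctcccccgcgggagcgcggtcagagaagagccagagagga
Itga5: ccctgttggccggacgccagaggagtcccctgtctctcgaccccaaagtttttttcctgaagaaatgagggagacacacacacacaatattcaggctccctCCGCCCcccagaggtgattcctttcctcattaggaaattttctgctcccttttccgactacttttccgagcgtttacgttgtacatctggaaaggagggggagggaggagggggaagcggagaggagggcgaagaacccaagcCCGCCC

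In saline-treated WT aortas the alpha subunits with the highest levels were *Itga5*, which with beta-1 forms the classical fibronectin receptor, at 315 ± 89.4 FPKM (mean ± SD, n = 5 here and below) and *Itga8* at 232 ± 7.25 FPKM. These did not separate, since *Itga5* ran from 211 to 427 FPKM and *Itga8* from 219 to 238 FPKM. Next came the laminin receptor subunit *Itga3* (83.6 ± 14.1 FPKM) and *Itga9* (67.0 ± 10.3 FPKM), which overlapped, and then *Itga7* (37.7 ± 6.40 FPKM). *Itgav* (8.09 ± 0.907 FPKM) and the collagen receptor subunit *Itga1* (8.05 ± 0.656 FPKM) overlapped as well, *Itga11* followed at 1.44 ± 0.519 FPKM, and *Itga6* (0.376 ± 0.207 FPKM) and *Itga4* (0.213 ± 0.0502 FPKM) were low. Among beta subunits, *Itgb1* led with 453 ± 38.4 FPKM, followed without overlap by *Itgb5* (240 ± 24.7 FPKM), *Itgb3* (30.2 ± 4.47 FPKM) and *Itgb7* (0.764 ± 0.184 FPKM).

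Inside the adhesion, the most abundant members of the same aortas were *Actn1* (423 ± 71.5 FPKM), *Actn4* (373 ± 44.4 FPKM), *Lims2* (365 ± 50.7 FPKM), which encodes PINCH2, and *Tns1* (244 ± 55.4 FPKM). The LIM protein gene *Zyx* stood at 141 ± 10.6 FPKM, *Tln1* at 106 ± 11.2 FPKM, *Fermt2* (kindlin-2) at 88.4 ± 10.7 FPKM and *Vasp* at 82.0 ± 13.4 FPKM. Lower levels were read for *Parva* (19.5 ± 1.43 FPKM), *Lims1* (PINCH1, 18.7 ± 2.76 FPKM), *Vcl* (18.7 ± 4.55 FPKM), *Ptk2* (focal adhesion kinase, 11.5 ± 2.08 FPKM), *Src* (10.6 ± 2.60 FPKM), *Pxn* (paxillin, 8.72 ± 0.466 FPKM), *Tns3* (2.95 ± 0.644 FPKM) and *Tln2* (0.974 ± 0.101 FPKM). *Ilk*, the kinase-like scaffold of PINCH and parvin, read only 1.60 ± 0.278 FPKM. Of its annotated exon bases, 89.7% overlap *Taf10* and *Rrp8*, which are transcribed in the other direction. Without strand information the reads of these genes cannot be told apart, so the level of *Ilk* is uncertain. *Vcl* shares 25.5% of its exon bases with *Ap3m1* on the opposite strand, itself at 3.91 to 8.10 FPKM, and no other member shares more than 8.15%. On GRCm38, *Itga5* (ENSMUSG00000000555) spans chr15:103344286-103366763 on the minus strand, *Itgb5* (ENSMUSG00000022817) chr16:33829665-33949338 on the plus strand, and *Itga8* chr2:12106632-12301922 on the minus strand.

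In WT mice, Ang II was followed by lower levels of most of these genes. Differences below are those of the mean log2(FPKM + 1), called log2 differences, with SE and with adjusted p from limma over all genes tested. A gene is called changed at an adjusted p below 0.05 and a DEG when the log2 difference also exceeded 1 in size. Of 29 members tested, 20 changed (38.0% of all genes tested did), 19 of them lower (21.5% of all genes) and 1 higher. The median log2 difference of the 29 was -0.56, against -0.14 over 11994 genes. DEGs numbered 5, all lower (8.66% of all genes were DEGs, 6.38% higher and 2.28% lower), and the 2 groups of mice did not overlap in 7 members (17.3% of all genes).

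The RGD-binding subunits, which recognise an arginine-glycine-aspartate motif in matrix proteins, all fell in WT. *Itga5* read 427, 386, 211, 294 and 258 FPKM in the 5 saline-treated mice and 102, 81.8, 83.4, 89.4 and 68.9 FPKM in the 5 Ang II-treated mice. The highest Ang II-treated mouse stood at less than the lowest saline-treated one, with a log2 difference of -1.84 ± 0.19 (adjusted p = 0.00181, limma). For *Itga8*, which pairs with beta-1 and is known from smooth muscle, the saline-treated mice ranged from 219 to 238 FPKM and the Ang II-treated mice read 71.1, 68.2, 114, 233 and 67.3 FPKM. Only replicate 4, the WT library that stood apart, remained within the saline range, and the log2 difference was -1.24 ± 0.30 (adjusted p = 0.0106, limma) with it and -1.55 ± 0.15 without it. *Itgav*, the vitronectin receptor subunit, read 7.30, 8.68, 7.65, 9.39 and 7.44 FPKM under saline and 4.09, 3.10, 3.96, 7.68 and 3.36 FPKM under Ang II (-0.79 ± 0.19, adjusted p = 0.00935, limma). Again only replicate 4 entered the saline range.

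Of the beta subunits, *Itgb1*, the common partner of most alpha subunits here, read 393, 449, 468, 498 and 458 FPKM under saline and 225, 165, 224, 389 and 162 FPKM under Ang II (-1.03 ± 0.22, adjusted p = 0.00614, limma). *Itgb3*, a partner of alpha-v, read 25.2, 35.0, 26.4, 34.3 and 30.1 FPKM under saline and 14.1, 7.92, 14.2, 18.4 and 10.4 FPKM under Ang II (-1.19 ± 0.19, adjusted p = 0.00216, limma). The groups did not overlap for either gene, and replicate 4 was the highest Ang II-treated mouse for both. *Itgb5*, another alpha-v partner, had a log2 difference of -0.33 ± 0.12 that missed the threshold (adjusted p = 0.0525, limma).

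Among subunits for other ligands, 3 fell and 1 rose. *Itga9*, a tenascin receptor subunit, had a log2 difference of -0.90 ± 0.26 (adjusted p = 0.0226), *Itga3* of -0.82 ± 0.17 (adjusted p = 0.00564) and *Itga1* of -0.48 ± 0.17 (adjusted p = 0.0471, all limma). The call of *Itga1* was lost in 12 of 17 alternatives. The collagen receptor subunit *Itga11* rose from 0.863 to 2.26 FPKM under saline to 2.37 to 3.24 FPKM under Ang II, without overlap (0.65 ± 0.14, adjusted p = 0.00762, limma). *Itga6*, a laminin receptor subunit below the level filter, read 0.218 to 0.658 FPKM under saline and 0.691 to 3.04 FPKM under Ang II, with no overlap (exact permutation test, two-sided p = 0.00794, the smallest that 5 against 5 mice can give). *Itga7* did not pass the test (-0.31 ± 0.13, adjusted p = 0.0772, limma), and *Itga4*, also below the filter, read 0.130 to 0.258 FPKM and 0.190 to 0.358 FPKM (exact permutation p = 0.571).

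On the cytoplasmic side *Vcl* fell from 13.2 to 25.5 FPKM under saline to 2.27 to 11.4 FPKM under Ang II (-1.62 ± 0.33, adjusted p = 0.00512, limma), without overlap. *Tln1* (-0.53 ± 0.16, adjusted p = 0.0251) and *Fermt2* (-0.77 ± 0.23, adjusted p = 0.0238, both limma), which activate integrins, fell as well. In the ILK-PINCH-parvin complex, *Lims1* (-0.81 ± 0.20, adjusted p = 0.0110), *Ilk* (-0.64 ± 0.15, adjusted p = 0.0100) and *Parva* (-0.44 ± 0.15, adjusted p = 0.0384, all limma) fell, while *Lims2* missed the threshold (-0.51 ± 0.20, adjusted p = 0.0583, limma). *Ilk* stood near the level filter, which it met through the saline-treated mice, where it was high. The kinase gene *Ptk2* fell without overlap (-0.55 ± 0.15, adjusted p = 0.0172, limma). *Src* and *Pxn* did not pass the test (-0.36 ± 0.15 and 0.08 ± 0.12). Among the actin linkers, *Actn4* (-0.80 ± 0.18, adjusted p = 0.00885), *Zyx* (-0.56 ± 0.18, adjusted p = 0.0343) and *Vasp* (-0.51 ± 0.16, adjusted p = 0.0266, all limma) fell. *Actn1* (-0.78 ± 0.29), *Tns1* (-0.51 ± 0.23) and *Tns3* (-0.02 ± 0.19) did not pass. Of 17 alternatives, the call of *Parva* was lost in 11, of *Zyx* in 10, of *Vasp* in 9, of *Tln1* in 7, of *Fermt2* in 5 and of *Itga9* in 4.

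Other cell type markers moved in the same comparison. Of 7 smooth muscle markers 5 fell (summed level 14147 to 20485 FPKM under saline and 5530 to 17070 under Ang II), of 6 adipocyte markers 5 were tested and all 5 rose (82.0 to 459 FPKM and 758 to 4634 FPKM), and of 8 immediate early genes 7 fell (548 to 2733 FPKM and 135 to 247 FPKM). Of 4 skeletal muscle markers tested 3 rose (3.60 to 6.39 FPKM and 2.69 to 285 FPKM). Of 3 Schwann cell and neuron markers tested 2 rose (2.57 to 7.05 FPKM and 9.71 to 34.8 FPKM). Of 6 endothelial markers 3 rose and 1 fell (85.3 to 242 FPKM and 105 to 172 FPKM). No marker of these lists was at 0 in every mouse. In tissue RNA, fewer cells of a type and less RNA per cell cannot be told apart, and the part of these markers in the members' values was not tested. Without WT Ang II replicate 4, 27 of the 29 members changed, 25 of them lower, and DEGs numbered 7, while 55.7% of all genes tested changed and 11.9% were DEGs.

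**Figure D1:**
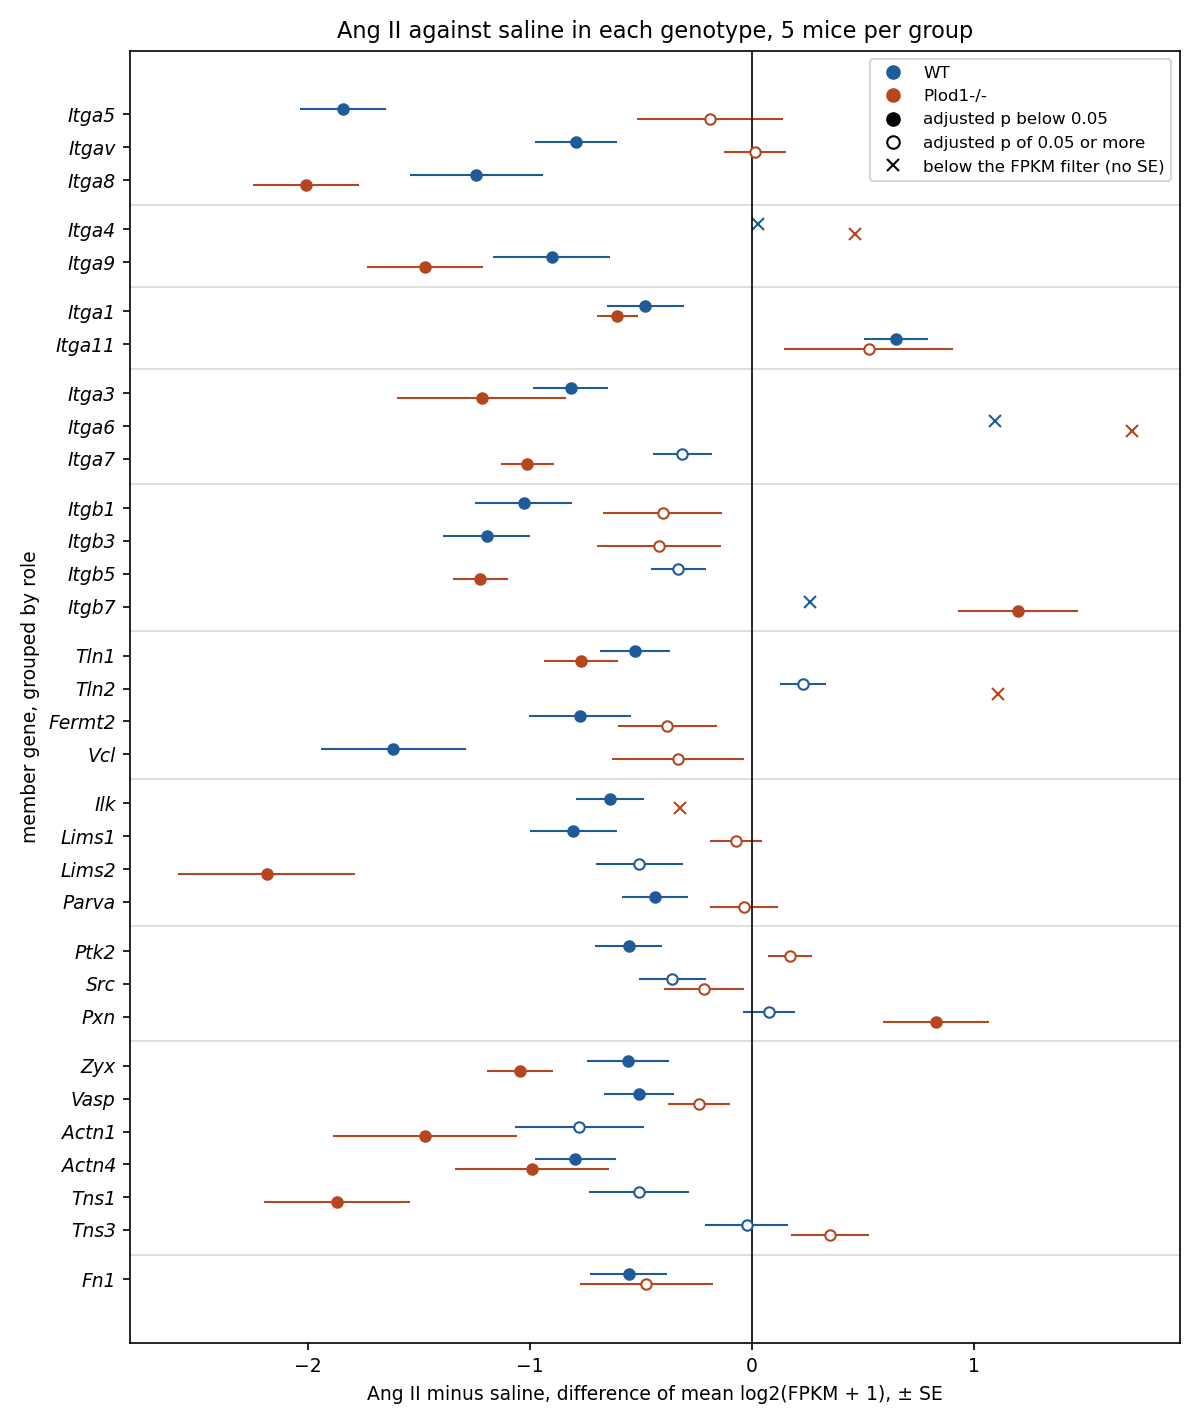
Difference of mean log2(FPKM + 1) between Ang II and saline (x axis, bars ± SE, 5 mice per group) for the 32 members grouped by role (y axis) in WT (blue) and *Plod1*-/- mice (red); filled points have an adjusted p below 0.05, open points do not, and crosses are below the level filter. *Itga5* stood at -1.84 in WT and -0.19 in *Plod1*-/-, while *Lims2* stood at -0.51 in WT and -2.19 in *Plod1*-/-.

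In *Plod1*-/- mice, Ang II was followed by lower levels of 12 members, with the largest differences in *Lims2*, *Itga8* and *Tns1*, and by higher levels of *Itgb7* and *Pxn*. Of 28 members tested, 14 changed (43.8% of all genes did), 12 lower (20.1% of all genes) and 2 higher (23.8%). The 10 DEGs (13.9% of all genes) were *Itgb7*, which was higher (8.38% of all genes), and 9 lower genes (5.51%). The median log2 difference of the members was -0.41, against 0.05 over 12333 genes. The groups of mice did not overlap in 8 of 28 members, a share of 28.6%, near the 29.2% over all genes.

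*Lims2*, whose product PINCH2 links ILK to receptor signalling, read 379, 347, 388, 439 and 412 FPKM under saline and 249, 107, 73.3, 57.3 and 40.3 FPKM under Ang II (-2.19 ± 0.40, adjusted p = 0.00151, limma). All 5 Ang II-treated mice were lower, and the highest was replicate 1, the *Plod1*-/- library that stood apart, so that the difference was -2.57 ± 0.24 without it. *Itga8* read 239, 169, 207, 215 and 237 FPKM under saline and 85.7, 63.7, 54.4, 38.7 and 32.5 FPKM under Ang II, without overlap (-2.01 ± 0.24, adjusted p = 0.000151, limma). *Tns1*, which encodes the adhesion adaptor tensin-1, read 277 to 344 FPKM under saline and 40.4 to 157 FPKM under Ang II, also without overlap (-1.87 ± 0.33, adjusted p = 0.00120, limma).

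Further receptor subunits fell. *Itga9* (-1.47 ± 0.26, adjusted p = 0.00129), *Itgb5* (-1.22 ± 0.12, adjusted p = 6.34e-05), *Itga7* (-1.01 ± 0.12, adjusted p = 0.000147) and *Itga1* (-0.61 ± 0.09, adjusted p = 0.000533, all limma) had no overlap between the groups. *Itga3* fell with overlap (-1.22 ± 0.38, adjusted p = 0.0247, limma), reading 99.2 FPKM at most under Ang II against 92.8 FPKM at most under saline. Among adaptors and linkers, *Zyx* (-1.04 ± 0.15, adjusted p = 0.000361) fell without overlap and *Actn1* (-1.47 ± 0.41, adjusted p = 0.0148), *Tln1* (-0.77 ± 0.17, adjusted p = 0.00382) and *Actn4* (-0.99 ± 0.35, adjusted p = 0.0391, all limma) with overlap. The call of *Actn4* was lost in 10 of 18 alternatives and that of *Itga3* in 4. *Actn1* read 424 to 537 FPKM under saline, 576 FPKM in Ang II replicate 1 and 96.3 to 133 FPKM in the other 4 Ang II-treated mice, and its difference without replicate 1 was -1.92 ± 0.13.

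The higher members were *Itgb7* and *Pxn*. *Itgb7*, which pairs with alpha-4 on leukocytes, read 0.691, 1.46, 2.58, 0.665 and 0.702 FPKM under saline and 1.88, 5.38, 5.22, 4.10 and 3.57 FPKM under Ang II (1.20 ± 0.27, adjusted p = 0.00493, limma). *Itgb7* met the level filter of 1 FPKM in all 5 Ang II-treated mice but not in all saline-treated ones. It was thus tested through the group where it was high. The partner gene *Itga4*, below the filter, read 0.128 to 0.269 FPKM and 0.201 to 1.12 FPKM (exact permutation test, p = 0.0238). *Pxn* read 8.02 to 10.4 FPKM under saline, 7.57 FPKM in Ang II replicate 1 and 18.8 to 21.1 FPKM in the other 4 (0.83 ± 0.24, adjusted p = 0.0172, limma). *Itga6* read 0.249 to 0.914 FPKM under saline and 0.554 to 7.21 FPKM under Ang II (exact permutation test, unadjusted p = 0.0159). *Tln2* read 0.600 to 0.934 FPKM and 0.878 to 4.83 FPKM (exact permutation test, unadjusted p = 0.0317). Both missed the filter and had higher readings under Ang II, with overlap only through replicate 1. The other 4 Ang II-treated mice had at least 4.06 FPKM of *Itga6* and 2.42 FPKM of *Tln2*.

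*Itga5*, *Itgb1*, *Itgb3* and *Itgav*, which fell in WT, did not pass in *Plod1*-/- mice. *Itga5* read 188, 187, 214, 265 and 195 FPKM under saline and 450, 137, 153, 195 and 108 FPKM under Ang II (-0.19 ± 0.33, adjusted p = 0.670, limma). Replicate 1 was above every saline-treated mouse, and without it *Itga5* fell (-0.52 ± 0.18, adjusted p = 0.0366). *Itgb1* read 415, 337, 390, 404 and 457 FPKM under saline and 607, 199, 304, 304 and 222 FPKM under Ang II (-0.40 ± 0.27, adjusted p = 0.248, limma). *Itgb3* read 20.2, 15.7, 18.4, 27.6 and 28.1 FPKM and then 30.1, 9.62, 16.4, 17.7 and 11.4 FPKM (-0.42 ± 0.28, adjusted p = 0.246, limma). For both beta subunits replicate 1 was again the highest of the 10 mice, and both fell without it (-0.65 and -0.64). Replicate 1 was picked out for a smooth muscle sum within the saline range, a choice that favours falls without it. *Itgav* read 7.18, 6.18, 6.93, 8.20 and 7.07 FPKM under saline and 7.76, 4.74, 8.11, 8.44 and 7.42 FPKM under Ang II, a log2 difference of 0.01 ± 0.14. *Vcl*, *Fermt2*, *Lims1*, *Parva*, *Ptk2*, *Src*, *Vasp*, *Tns3* and *Itga11* did not pass either, with log2 differences between -0.38 and 0.53, and *Ilk* was below the filter. Without replicate 1, *Fermt2* (-0.60 ± 0.12, adjusted p = 0.00188) and *Src* (-0.38 ± 0.12, adjusted p = 0.0258, both limma) fell. The rest of those tested still did not pass.

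The smooth muscle sum fell from 15079 to 20755 FPKM to 2326 to 6204 FPKM in 4 mice and 16990 FPKM in replicate 1, with 6 of 7 markers lower. The 10 leukocyte markers summed to 11.9 to 39.4 FPKM under saline and 90.8 to 648 FPKM under Ang II, with 5 of 6 tested markers higher. The platelet sum was 12.1 to 30.5 FPKM and 152 to 984 FPKM, with 4 of 5 markers higher. In each of these 3 lists replicate 1 was the Ang II-treated mouse nearest to the saline range. The fibroblast sum was 366 to 636 FPKM and 762 to 3811 FPKM without overlap (2 of 6 markers higher). The Schwann cell and neuron sum was 4.78 to 15.2 FPKM and 5.34 to 306 FPKM (0 of 3 tested passed by limma, 2 at an unadjusted p below 0.05). In the other lists, 3 of 6 endothelial markers, 2 of 6 adipocyte markers and 2 of 8 immediate early genes were higher. The part of these markers in the members' values was not tested. Without replicate 1, 20 of 28 members changed, 18 of them lower, with 12 DEGs, while 51.1% of all genes tested changed and 15.2% were DEGs.

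Whether Ang II acted differently in the genotypes was tested as an interaction over all 20 mice, where a positive value means that the log2 difference under Ang II was higher in *Plod1*-/- than in WT. Of 31 members tested, 12 changed in this sense (38.7%, near the 37.8% of all genes), 8 with a positive (23.8% of all genes) and 4 with a negative value (14.1%). Past a size of 1 were *Itga5* and *Vcl* on the positive side (9.69% of all genes) and *Lims2* and *Tns1* on the negative side (6.36%, 16.1% in all). The median over members was 0.27 and over 13263 genes 0.12. The fibronectin and vitronectin receptor subunits *Itga5* and *Itgav* and the kinase gene *Ptk2* were on the positive side, and *Itgb5*, *Itga7*, *Lims2* and *Tns1* on the negative side.

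The smallest adjusted p was that of *Itgb5*. It read 236, 264, 217, 215 and 266 FPKM in WT saline and 184, 197, 183, 224 and 164 FPKM in WT Ang II mice. In *Plod1*-/- mice it read 252, 275, 310, 307 and 340 FPKM under saline and 120, 130, 150, 118 and 114 FPKM under Ang II. The *Plod1*-/- Ang II mice were the lowest 5 of all 20, and the interaction was -0.89 ± 0.16 (adjusted p = 0.000618, limma).

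*Itga5* had a positive interaction of 1.65 ± 0.40 (adjusted p = 0.00383, limma), from the values given above, and 1.33 ± 0.27 without *Plod1*-/- Ang II replicate 1. *Itgav* followed the same course with 0.81 ± 0.24 (adjusted p = 0.0133, limma). *Ptk2* read 9.52, 14.2, 11.2, 12.9 and 9.53 FPKM in WT saline, 8.42, 5.62, 8.98, 8.06 and 6.41 FPKM in WT Ang II, 7.55, 8.26, 9.09, 10.3 and 9.48 FPKM in *Plod1*-/- saline and 10.7, 8.92, 9.72, 11.0 and 10.5 FPKM in *Plod1*-/- Ang II mice. It thus fell in WT and had no called difference in *Plod1*-/-, with an interaction of 0.73 ± 0.18 (adjusted p = 0.00471, limma).

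*Itga7*, the laminin receptor subunit of muscle, read 35.7, 48.6, 34.8, 32.1 and 37.2 FPKM in WT saline, 28.8, 29.7, 26.2, 36.5 and 28.8 FPKM in WT Ang II, 41.6, 51.4, 46.5, 58.7 and 46.8 FPKM in *Plod1*-/- saline and 25.2, 28.4, 21.1, 23.5 and 20.8 FPKM in *Plod1*-/- Ang II mice. The *Plod1*-/- Ang II mice were lower than all saline-treated mice and overlapped WT Ang II mice, and the interaction was -0.70 ± 0.18 (adjusted p = 0.00531, limma). *Lims2* read 351, 388, 422, 286 and 374 FPKM in WT saline and 171, 257, 266, 377 and 239 FPKM in WT Ang II mice, and its interaction was -1.68 ± 0.46 (adjusted p = 0.00902, limma). The 4 lowest of all 20 readings were *Plod1*-/- Ang II mice other than replicate 1. *Tns1* had an interaction of -1.36 ± 0.41 (adjusted p = 0.0155, limma).

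*Lims1* (0.73 ± 0.24, adjusted p = 0.0207), *Vcl* (1.28 ± 0.47, adjusted p = 0.0384), *Itgb7* (0.93 ± 0.32, adjusted p = 0.0284), *Tln2* (0.88 ± 0.30, adjusted p = 0.0285) and *Pxn* (0.75 ± 0.27, adjusted p = 0.0366, all limma) were also positive. *Itgb3* (0.77 ± 0.35, adjusted p = 0.0914), *Itgb1* (0.63 ± 0.36, adjusted p = 0.171) and *Itga8* (-0.77 ± 0.41, adjusted p = 0.143, all limma) did not pass. Of the 12 members, *Itgb5*, *Ptk2*, *Itga7*, *Itgav*, *Itga5*, *Lims2* and *Tns1* passed in all 28 alternatives computed, whereas *Pxn* passed in 12 and *Vcl* in 15. The split of positive and negative calls, 8 to 4, was 5 to 4 after quantile normalization and after rescaling without mitochondrial genes. With both libraries that stood apart left out, 16 members passed, 10 positive and 6 negative, while 50.0% of all genes did. Marker lists moved in the same test. All 8 immediate early genes were positive, as were 6 of 7 leukocyte markers tested (10 listed) and 4 of 5 platelet markers. Negative were 3 of 7 smooth muscle, 3 of 6 adipocyte and 3 of 4 tested skeletal muscle markers. The part of these markers in the members' values was not tested.

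**Figure D2:**
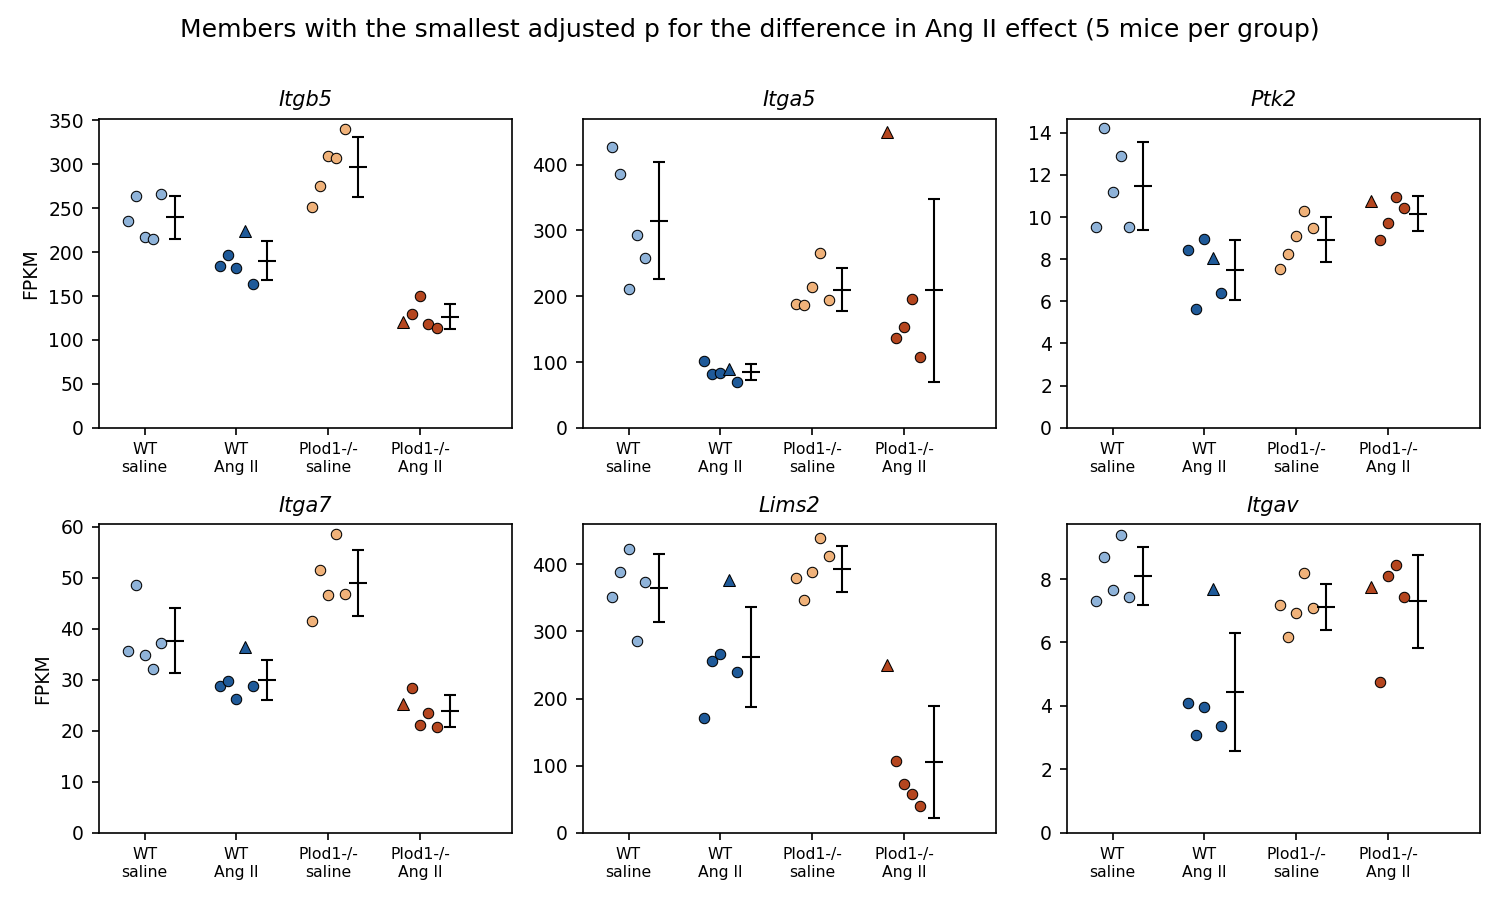
FPKM (y axis, linear from 0) in each of 5 mice per group (x axis) for the 6 members with the smallest adjusted p of the interaction; triangles mark WT Ang II replicate 4 and *Plod1*-/- Ang II replicate 1, and bars are mean ± SD. *Itgb5* stood at 114 to 150 FPKM in *Plod1*-/- Ang II mice, lower than in every other mouse, and *Itga5* at 68.9 to 102 FPKM in WT Ang II mice, lower than in every other mouse.

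Compared directly under Ang II, the genotypes differed in 9 of 30 members tested (30.0%, against 31.2% of all genes), 7 higher (20.8% of all genes) and 2 lower (10.4%) in *Plod1*-/- mice. The median log2 difference was 0.32, against 0.12 over 12356 genes. DEGs were *Itgb7* and *Itga5*, which were higher, and *Lims2*, which was lower (11.1% of all genes, 7.45% higher and 3.67% lower), and the groups of mice did not overlap for *Itga5* and *Itgb5* (6.67% of members, 15.1% of all genes). This comparison shares its WT Ang II and *Plod1*-/- Ang II mice with those above and is no independent evidence.

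Among receptor subunits, *Itga5* was higher in *Plod1*-/- (1.10 ± 0.33, adjusted p = 0.0276), as were *Itgav* (0.64 ± 0.22, adjusted p = 0.0429) and *Itgb7* (1.20 ± 0.23, adjusted p = 0.00509), while *Itgb5* was lower (-0.59 ± 0.14, adjusted p = 0.0111, all limma). The lowest *Plod1*-/- Ang II mouse had 108 FPKM of *Itga5* and the highest WT Ang II mouse 102 FPKM. *Itgb7* met the level filter in every *Plod1*-/- Ang II mouse but not in every WT Ang II mouse. It was thus tested through the group where it was high. Inside the cell, *Lims1* (0.62 ± 0.21, adjusted p = 0.0420), *Ptk2* (0.41 ± 0.14, adjusted p = 0.0425), *Pxn* (0.77 ± 0.25, adjusted p = 0.0396) and *Tns3* (0.71 ± 0.23, adjusted p = 0.0368) were higher and *Lims2* was lower (-1.56 ± 0.42, adjusted p = 0.0195, all limma). *Tns1* (-1.02 ± 0.36, adjusted p = 0.0530), *Itga8* (-0.89 ± 0.37, adjusted p = 0.0889) and *Itgb1* (0.45 ± 0.33, adjusted p = 0.317, all limma) did not pass. Beside these values, all 8 immediate early genes were higher in *Plod1*-/- mice. Their sums did not overlap, at 135 to 247 FPKM in WT and 622 to 1621 FPKM in *Plod1*-/- mice. Of 10 leukocyte markers 7 were tested, and 6 of these were higher (sums of all 10, 38.0 to 218 FPKM and 90.8 to 648 FPKM). The 218 FPKM was WT Ang II replicate 1, and the other WT Ang II mice had at most 57.5 FPKM. In WT, Ang II against saline, only 4 of the 10 met the level filter. Of 7 smooth muscle markers 2 were lower, as were 2 of 6 adipocyte and 2 of 4 tested skeletal muscle markers. Of 5 platelet markers 2 were higher, and of 5 Schwann cell and neuron markers 2 were higher and 1 lower. Of 6 fibroblast markers 1 was higher and 1 lower, and no endothelial marker passed. The part of these markers in the members' values was not tested.

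These calls moved with the mice and the scaling. Of 19 alternatives, the calls of *Itgav* and *Tns3* were lost in 12 and those of *Ptk2*, *Lims1* and *Pxn* in 11. That of *Itga5* was lost in 5, that of *Lims2* in 3 and that of *Itgb5* in 1. Among the 19, leaving out libraries with *Xist* RNA is the same fit as leaving out *Plod1*-/- Ang II replicate 1, counted separately. Without *Plod1*-/- Ang II replicate 1, 12 members passed, 6 higher and 6 lower, and DEGs numbered 8 (38.1% and 12.7% of all genes), with *Itga8* (-1.07 ± 0.37), *Itga3* (-0.81 ± 0.25), *Actn1* (-1.02 ± 0.32) and *Tns1* (-1.25 ± 0.33) joining the lower side, *Itga6* and *Tln2* the higher side, and *Itgav*, *Ptk2* and *Tns3* no longer passing. The split of 7 higher to 2 lower was 3 to 4 after quantile normalization and 2 to 4 after rescaling without mitochondrial genes. With both libraries that stood apart left out, 10 were higher and 6 lower (48.4% of all genes changed), *Itga5* among the higher (0.80 ± 0.20) and *Lims2* among the lower (-1.80 ± 0.29).

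**Figure D3:**
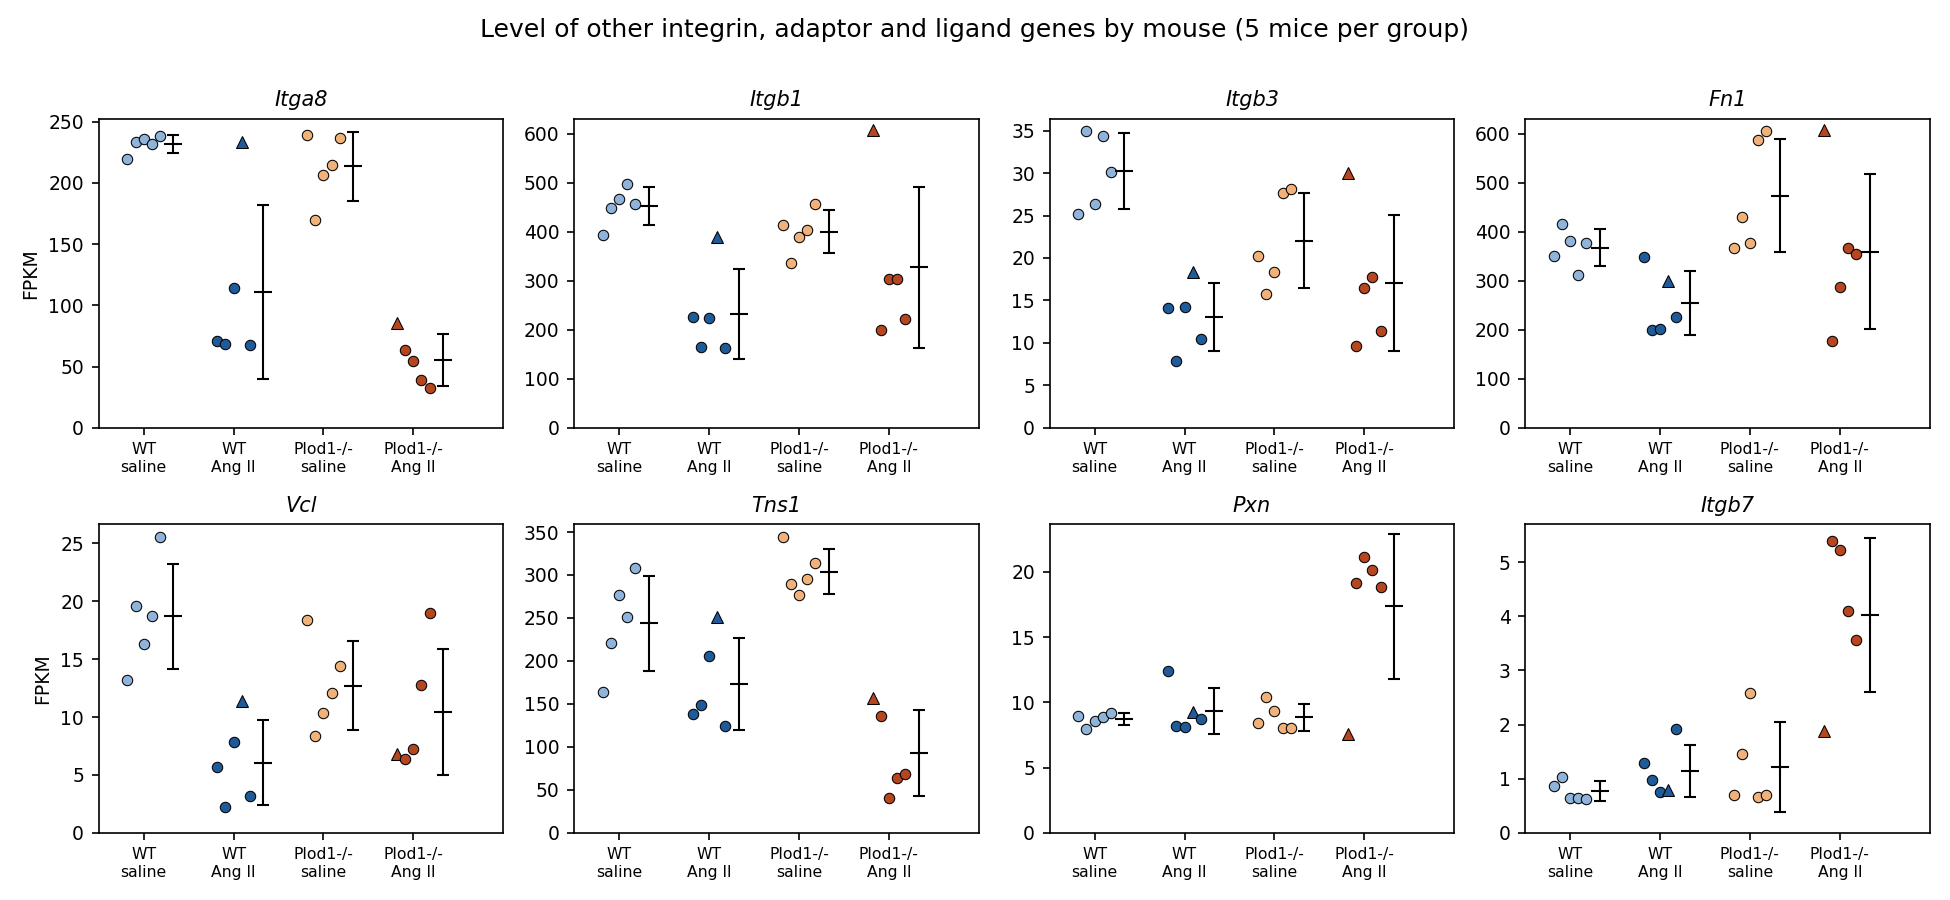
FPKM (y axis, linear from 0) in each of 5 mice per group (x axis) for 8 further members; triangles mark WT Ang II replicate 4 and *Plod1*-/- Ang II replicate 1, and bars are mean ± SD. For *Itgb1*, *Itgb3* and *Fn1* the triangle of *Plod1*-/- Ang II replicate 1 was the highest of its group, for *Pxn* (7.57 FPKM) and *Itgb7* (1.88 FPKM) the lowest.

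Under saline 1 member passed between the genotypes. Of 28 members tested, *Ilk* alone passed (3.57%, against 6.55% of all genes, 3.33% higher and 3.23% lower), with 1.33 to 1.97 FPKM in WT and 0.699 to 1.08 FPKM in *Plod1*-/- mice (-0.47 ± 0.10, adjusted p = 0.0278, limma). All WT mice but not all *Plod1*-/- mice met the level filter of 1 FPKM. *Ilk* was thus tested near the filter and through the group where it was high. Its level is also uncertain because of the overlapping genes, and the call was lost in 7 of 18 alternatives. None of the 28 was a DEG by limma (0.767% of all genes were, 0.358% higher and 0.408% lower), 12 had an unadjusted p below 0.05 (42.9%, against 27.1% of all genes), and the groups did not overlap only for *Ilk* (9.52% of all genes). *Itga5* had a log2 difference of -0.55 ± 0.19 (adjusted p = 0.0939), *Itga7* of 0.38 ± 0.12 (adjusted p = 0.0842) and *Itgb5* of 0.31 ± 0.11 (adjusted p = 0.0967, all limma). The median over members was 0.01 and over 11999 genes -0.01.

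*Fn1*, which encodes fibronectin, the ligand of *Itga5*, *Itgav* and *Itga8* receptors, read 351, 415, 381, 313 and 378 FPKM in WT saline and 348, 200, 202, 299 and 227 FPKM in WT Ang II mice. It fell in WT (-0.56 ± 0.17, adjusted p = 0.0286, limma), with overlap of 1 Ang II-treated mouse, and the call was lost in 9 of 17 alternatives. In *Plod1*-/- mice it read 367, 430, 376, 588 and 605 FPKM under saline and 609, 177, 288, 368 and 355 FPKM under Ang II (-0.48 ± 0.30, adjusted p = 0.223, limma). Replicate 1 was the highest of all 20 mice, and *Fn1* fell without it (-0.69). Between the genotypes *Fn1* passed neither under Ang II (0.42 ± 0.30) nor under saline (0.34 ± 0.16), nor in the interaction (0.08 ± 0.35).

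Other integrin ligands, a list of 20 genes, moved in both directions. In WT 9 of 19 tested fell (47.4%, against 21.5% of all genes) and 2 rose (10.5%, against 16.5%), and in *Plod1*-/- mice 5 fell (26.3%, against 20.1%) and 7 rose (36.8%, against 23.8%). The osteopontin gene *Spp1* rose in both, by a log2 difference of 3.05 ± 0.75 (adjusted p = 0.0115) in WT and of 4.37 ± 0.69 (adjusted p = 0.000662, both limma) in *Plod1*-/- mice. In WT the matricellular *Ccn1* fell (-2.04 ± 0.39, adjusted p = 0.00383) and the vitronectin gene *Vtn* rose (1.79 ± 0.35, adjusted p = 0.00472, both limma). In *Plod1*-/- mice *Thbs1* rose (3.34 ± 0.47, adjusted p = 0.000370) and *Ibsp* fell (-2.24 ± 0.39, adjusted p = 0.00119, both limma). In the interaction 11 of 19 passed (57.9%, against 37.8% of all genes), 8 positive, with *Thbs1* (4.15 ± 0.63), *Ccn1* (2.48 ± 0.60) and the tenascin-C gene *Tnc* (2.42 ± 0.54) largest. Between the Ang II-treated genotypes 8 were higher in *Plod1*-/- (42.1%, against 20.8% of all genes) and 1 lower (5.26%, against 10.4%), again led by *Thbs1* (4.21 ± 0.34), *Spp1* (3.12 ± 0.95) and *Tnc* (2.29 ± 0.44). Under saline 2 of 18 passed (11.1%, against 6.55%).

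A second list held 70 further adhesion genes, such as paralogues, adaptors and GTPase regulators. In WT 30 of 63 tested fell (47.6%, against 21.5% of all genes) and 1 rose (1.59%, against 16.5%), with a median log2 difference of -0.40. The largest were *Ptk2b*, the paralogue of *Ptk2* (1.47 ± 0.24), the filamin gene *Flnc* (-1.42 ± 0.23) and *Nedd9* (-1.19 ± 0.24). In *Plod1*-/- mice 26 of 65 fell (40.0%, against 20.1%) and 14 rose (21.5%, against 23.8%), with a median of -0.05. The largest were *Fermt3*, the kindlin of blood cells (2.91 ± 0.47), the leukocyte paxillin relative *Lpxn* (2.45 ± 0.39) and the parvin of blood cells *Parvg* (2.21 ± 0.41). *Fermt3* read 8.79 to 61.8 FPKM in *Plod1*-/- Ang II mice and 1.95 to 6.29 FPKM under saline. Under Ang II 13 of 64 were higher (20.3%, near the 20.8% of all genes) and 4 lower in *Plod1*-/- (6.25%, against 10.4%), with *Fermt3* (2.24 ± 0.55), *Parvg* (2.08 ± 0.42) and *Lpxn* (2.01 ± 0.46) largest. In the interaction 19 of 65 were positive (29.2%, against 23.8%) and 8 negative (12.3%, against 14.1%), led by *Fermt3* (2.60 ± 0.63), *Lpxn* (2.10 ± 0.52) and *Evl* (2.01 ± 0.42), and under saline 5 of 62 passed (8.06%, against 6.55%). Both kindlin-3 and leupaxin are known from leukocytes and platelets, whose marker sums were higher in the same mice, as given above. The part of these cells in the values of *Fermt3*, *Lpxn* and *Parvg* was not tested.

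Pairs of related members were also set against each other within each mouse. The level of *Itga5* divided by that of *Itga8* was 0.898 to 1.95 in WT saline, 0.383 to 1.43 in WT Ang II, 0.785 to 1.24 in *Plod1*-/- saline and 2.14 to 5.26 in *Plod1*-/- Ang II mice, the last without overlap with the rest. The level of *Lims1* divided by that of *Lims2* was 0.0533 to 0.463 in *Plod1*-/- Ang II mice and 0.0298 to 0.0793 in the other 15, with overlap. The level of *Tns3* divided by that of *Tns1* was 0.0229 to 0.123 in *Plod1*-/- Ang II mice and 0.00905 to 0.0249 in the others, with overlap. Further ratios formed overlapped as well. *Itgb1* to *Itgb5* was 1.53 to 5.05 in *Plod1*-/- Ang II and 1.67 to 2.32 in WT saline mice. *Pxn* to *Zyx* was 0.0793 to 0.280 in *Plod1*-/- Ang II and 0.0612 to 0.175 in WT Ang II mice. These ratios were formed after the values were seen and were not tested.

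**Figure D4:**
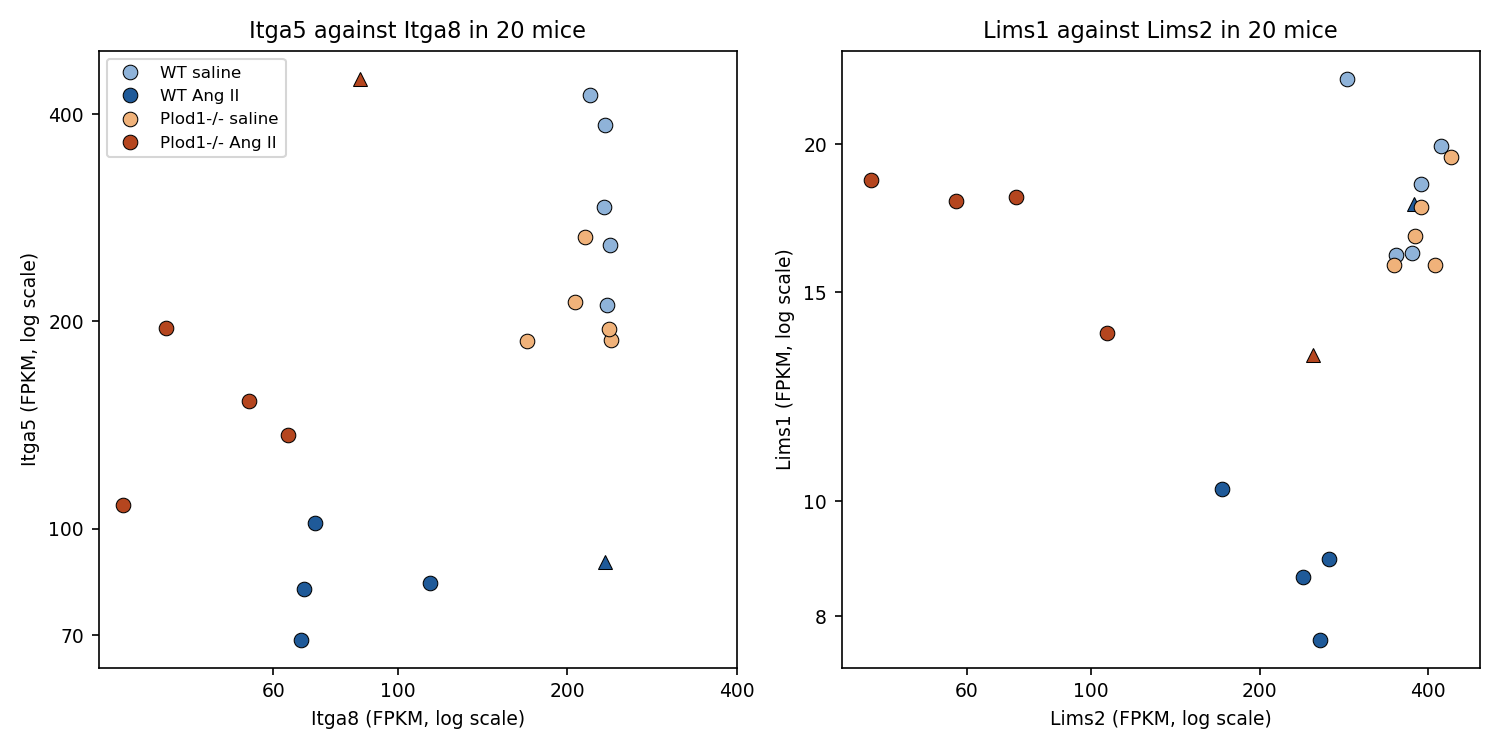
Level of *Itga5* against *Itga8* (left) and of *Lims1* against *Lims2* (right) in FPKM on log axes, 1 point for each of 20 mice coloured by group, with triangles for WT Ang II replicate 4 and *Plod1*-/- Ang II replicate 1. *Plod1*-/- Ang II mice lie at 32.5 to 85.7 FPKM of *Itga8* with *Itga5* above every WT Ang II mouse, and 4 of them lie at 40.3 to 107 FPKM of *Lims2*, apart from all other mice.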

How the data were processed

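Aortic RNA of 20 mice was sequenced. The authors aligned reads to the mouse genome and deposited FPKM for every Ensembl gene. Per the paper's methods these were scaled across libraries with cuffnorm. The submitters' processing notes name mm10, HISAT2 2.1.0, Bowtie2 2.2.3 and HTSeq 0.6.0. The files hold no read counts, so depth and counting error are unknown, and strand was not kept. Groups came from the labels. Genes with at least 1 FPKM in at least 5 libraries of a comparison were fitted as log2(FPKM + 1) with limma 3.58.1 (R 4.3.3, variance trend, Benjamini-Hochberg adjustment). This scale understates changes of low genes. A group of 5 mice can meet the filter alone, so some genes were tested through the group where they are high. Summed levels of a marker list hold all its genes, also those not tested. For members below the filter level, a two-sided exact permutation test was run. The scripts were tested on simulated data. P-values set the difference between groups against the variation between mice.

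The members and lists were chosen with earlier results of these data known. By rule, all members are named, with statistics where the adjusted p was below 0.05 and values of every mouse for the 6 smallest interaction p and for *Fn1*, *Itga5*, *Itgav*, *Itgb1*, *Itgb3* and *Itga8*, and the 3 largest changed genes of each list. Statistics of other members, the values of every mouse for *Itgb7* and the further members plotted were chosen after seeing the data. Alternatives were a pseudocount of 0.1, no filter, a replicate block, quantile normalization, weights per mouse, rescaling without mitochondrial genes, 1 fit of all groups, the adjusted p alone, and leaving out libraries with *Xist* RNA or each mouse. Leaving out both libraries that stood apart was added after seeing the data. Both were picked out for smooth muscle sums within the saline range. Leaving out either favours larger falls under Ang II and is no independent support for them. Between the genotypes under Ang II or under saline, leaving out libraries with *Xist* RNA removes a single mouse. It repeats the fit without that mouse, and the counts of alternatives hold both. Most same-numbered mice did not deviate together (correlations -0.37 to 0.43). The highest correlations were those of replicates 2 and 3 in *Plod1*-/-, Ang II against saline (0.43 and 0.40). Positions of exons are from GENCODE M21, and promoters from RefSeq.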

Additional observations from a re-analysis of the deposited data

Results flagged for a closer look

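Within a group, 9 of 128 sets of 5 mice held a member reading far from the other 4 by Dixon's criterion, which chance meets in about 1 of 20 sets. Of these, 5 lay in *Plod1*-/- Ang II replicate 1. There *Actn1* read 576 FPKM against 96.3 to 133 FPKM, *Tln1* 109 FPKM against 57.0 to 66.1 FPKM, *Fermt2* 103 FPKM against 40.6 to 50.7 FPKM and *Ilk* 1.12 FPKM against 0.275 to 0.471 FPKM, all high, and *Pxn* 7.57 FPKM against 18.8 to 21.1 FPKM, low. In WT Ang II mice *Vasp* was high in replicate 4 (78.2 FPKM against 49.5 to 55.1) and *Itga4* in replicate 1 (0.358 FPKM against 0.190 to 0.223). *Itgav* was low in *Plod1*-/- Ang II replicate 2 (4.74 FPKM against 7.42 to 8.44) and *Tln1* in WT saline replicate 4 (86.1 FPKM against 107 to 113).

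The difference between the genotypes in the log2 difference under Ang II passed the interaction test of limma for 12 members. It was positive for *Itga5* (1.65), *Vcl* (1.28), *Itgb7* (0.93), *Tln2* (0.88), *Itgav* (0.81), *Pxn* (0.75), *Lims1* (0.73) and *Ptk2* (0.73). It was negative for *Lims2* (-1.68), *Tns1* (-1.36), *Itgb5* (-0.89) and *Itga7* (-0.70).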

How the results depend on the processing

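Over 56 called differences of single members, 1117 values were computed under alternatives. None changed direction, 918 kept their side of the threshold and 199 did not. With the adjusted p alone, members past the threshold numbered 20 (WT, Ang II against saline), 9 (genotypes under Ang II), 1 (genotypes under saline) and 12 (interaction). Without a filter on low values, 13 changed in WT, 2 (with 1 DEG) between genotypes under Ang II, 0 under saline and 7 in the interaction. With the replicate block, 4 changed between genotypes under Ang II and 0 under saline; the labels do not say that a number marks a shared litter, and in 3 of 20 same-numbered pairs, counted over 4 comparisons, a mouse of the first group correlated best with its own number in the other. With weights per mouse, 22 changed (9 DEGs) between genotypes under Ang II, 3 under saline and 22 (8 DEGs) in the interaction. In 1 fit of all groups, 15 changed under Ang II and 0 under saline. Without libraries holding *Xist* RNA, DEGs numbered 8 under Ang II and 8 in the interaction. With both libraries that stood apart left out, 16 changed (5 DEGs) under Ang II, and the interaction had 7 DEGs. Leaving out each mouse gave 4 to 7 DEGs and 12 to 27 changed members in WT, 7 to 12 and 12 to 20 in *Plod1*-/- mice, 1 to 8 and 2 to 12 between genotypes under Ang II, 0 and 0 to 2 under saline, and 3 to 9 and 9 to 15 in the interaction. The count of changed members in WT was 12 without WT saline replicate 2, WT Ang II replicate 2 or WT Ang II replicate 5. Between genotypes under Ang II it was 3 without WT Ang II replicates 2 or 5, 4 without WT Ang II replicate 3 or *Plod1*-/- Ang II replicates 3 or 5, and 2 (1 DEG) without *Plod1*-/- Ang II replicate 4. Under saline it was 0 without WT saline replicate 2 or *Plod1*-/- saline replicates 2, 3 or 4, and 2 without WT saline replicates 1 or 3 or *Plod1*-/- saline replicate 1. The interaction had 9 DEGs without *Plod1*-/- Ang II replicate 1. Quantile normalization moved the median of all genes from 0.12 to -0.04 between genotypes under Ang II and in the interaction, and from 0.05 to -0.09 in *Plod1*-/- mice. The causes of these moves were not tested.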
